A study of Mus musculus with 10 samples.

Results

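The immediate early genes Fos, Fosb, Fosl2, Jun, Junb, Jund, Atf3, Egr1, Egr3 and Npas4 were described by the open chromatin at and around them in brain and lung of wild-type C57BL/6J mice. Their peaks were all rows of the deposited count table that overlapped 1 of these genes or lay within 5000 bp of its ends, the nearest gene end deciding between several genes. This gave 28 peaks of the 37513 in the table, with 2 to 5 peaks for each of the 10 genes, and all 28 held enough reads to be tested. Of the 28, 5 also overlapped, or lay within 5000 bp of, another protein-coding gene. The groups were brain at 200 nuclei (n = 2), brain at 50 nuclei (n = 2), lung at 200 nuclei (n = 3) and lung at 50 nuclei (n = 3), all of them wild type. Frozen sections were treated with the transposase Tn5, which cuts open chromatin and leaves sequencing adapters there (ATAC-seq), and a laser then cut out randomly chosen nuclei. A library of 50 nuclei pooled nuclei captured singly, and a library of 200 nuclei pooled 10 captured areas of about 20 nuclei each, so that number and mode of capture changed together. The labels call the libraries technical replicates and name no animal, so every p-value below measures the spread between these libraries only.

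Immediate early genes are switched on within minutes of a stimulus, without new protein synthesis, by factors such as SRF and CREB that sit on promoters already open in resting cells. Fos-family and Jun-family proteins pair to form AP-1, a transcription factor that binds the sequence TGANTCA, while ATF3 is a stress-induced relative that pairs with Jun proteins. EGR1 and EGR3 are zinc-finger factors induced by growth factors and by synaptic activity, and NPAS4 is a factor of neurons induced by calcium entry.

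Of the 8 of these genes with a promoter in the RefSeq table for GRCm38.p6, the assembly of mm10, the 250 bases upstream of the start site lay wholly or partly under a peak at 5. These 5 are shown because the start-site peaks described below sit on them. Each is written 5′ to 3′ along the gene, ends at the base before the start site, and has in capitals the core TGACG of the cAMP response element, read on either strand as TGACG or CGTCA, or the site TGACATCA. The windows are chr12:85473640-85473889 (+ strand) for Fos, chr7:19310046-19310295 (- strand) for Fosb, chr4:95052223-95052472 (- strand) for Jun, chr8:84978749-84978998 (- strand) for Junb and chr1:191183334-191183583 (- strand) for Atf3.
Fos: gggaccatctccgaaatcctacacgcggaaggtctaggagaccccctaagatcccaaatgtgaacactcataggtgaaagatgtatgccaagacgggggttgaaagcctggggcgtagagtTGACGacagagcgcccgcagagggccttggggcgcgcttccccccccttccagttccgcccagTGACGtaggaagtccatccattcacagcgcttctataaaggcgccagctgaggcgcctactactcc
Fosb: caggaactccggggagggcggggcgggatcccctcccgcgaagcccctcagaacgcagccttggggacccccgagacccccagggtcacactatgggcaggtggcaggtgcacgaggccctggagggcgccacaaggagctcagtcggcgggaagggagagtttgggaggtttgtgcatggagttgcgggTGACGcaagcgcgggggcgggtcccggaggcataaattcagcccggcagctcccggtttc
Jun: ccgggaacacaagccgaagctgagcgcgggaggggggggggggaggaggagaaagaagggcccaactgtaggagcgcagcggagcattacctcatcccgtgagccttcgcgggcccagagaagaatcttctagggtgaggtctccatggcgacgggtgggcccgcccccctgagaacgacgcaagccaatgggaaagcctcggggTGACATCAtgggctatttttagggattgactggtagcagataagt
Junb: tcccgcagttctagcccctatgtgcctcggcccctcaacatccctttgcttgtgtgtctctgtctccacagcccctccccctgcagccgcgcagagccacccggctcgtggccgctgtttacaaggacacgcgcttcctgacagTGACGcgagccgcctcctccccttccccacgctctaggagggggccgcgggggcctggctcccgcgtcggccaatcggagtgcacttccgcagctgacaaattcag
Atf3: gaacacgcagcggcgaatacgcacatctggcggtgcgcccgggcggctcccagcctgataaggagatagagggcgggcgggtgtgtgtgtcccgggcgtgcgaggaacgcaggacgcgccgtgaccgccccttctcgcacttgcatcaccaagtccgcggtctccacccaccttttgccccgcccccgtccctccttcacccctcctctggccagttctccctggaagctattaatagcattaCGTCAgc

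The core TGACG, bound by CREB and ATF proteins, was present on either strand in 5 of the 8 windows, those of Fos, Fosb, Junb, Atf3 and Npas4, and in 17.8% of the 32851 windows of this length in the table. In Fos it began 129 and 66 bases upstream of the start site, in Fosb 60, in Junb 106 and in Atf3 7 bases upstream. TGACATCA, a site of the Jun promoter described as bound by Jun and ATF2, was found 45 bases upstream of the Jun start site, in 1 of 8 windows and in 2.93% of all. The AP-1 site TGANTCA was in 0 of 8 (6.75% of all), the CArG box bound by SRF in 0 of 8 (1.47%), the EGR site GCGTGGGCG in 0 of 8 (0.536%) and the GC box GGGCGG in 6 of 8 (32.7%), on either strand. GCGTGGGCG shares letters with a GC box that follows it directly, and TGACG and TGACATCA cannot match in the same place on 1 strand. These are letter matches in a short window and not sites of measured binding.

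Levels are in RPM, the reads of a peak per 1000000 reads that the library had in peaks outside the mitochondrial genome. Nuclear reads ranged from 319307 to 465489 in the 4 brain libraries and from 340697 to 3075377 in the 6 lung libraries, so that 3 reads, the limit that a count of 0 allows, stood for 6.44 to 9.40 RPM in brain and 0.975 to 8.81 RPM in lung. This covers counting error only. Mitochondrial reads took 93.4% to 95.8% of reads in peaks in brain and 24.7% to 58.0% in lung, and do not enter RPM. Replicates 2 and 3 of lung at 50 nuclei stood apart, with a read in 60.9% and 56.1% of nuclear peaks against 86.2% to 97.6% in the other 8 libraries. They had a read at 21 and 18 of the 28 peaks, and the others at 26 to 28, so results are also given without these 2 libraries where that changes a call. The tissue labels were checked on marker genes. All 6 neuronal genes had a peak higher in brain (7 of 11 peaks, summed level 213 to 296 RPM in brain and 18.3 to 96.9 RPM in lung) and all 6 endothelial genes a peak higher in lung (12 of 34 peaks, 247 to 452 RPM in brain and 809 to 1222 RPM in lung). Of the other markers, 4 of 13 oligodendrocyte peaks were higher in brain, 6 of 22 alveolar epithelial peaks were higher in lung, and 0 of 7 immune cell peaks were called either way, with summed levels of 85.9 to 131 RPM in brain and 84.2 to 115 RPM in lung. No marker gene with a peak had 0 reads in a whole tissue, and no peak was assigned to Sftpc or Cd68. These cell mixtures moved with tissue in every comparison of brain with lung below, and their part in the results was not tested. In pooled nuclei, a larger share of nuclei with an open site and more cutting per nucleus cannot be told apart.

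Set against lung, brain had more open chromatin far upstream of the Npas4 start site, at 1 end of Egr1 and within Fosb. It had less at the start of Atf3, upstream of Fos and beyond the end of Junb. Together these were 6 of 28 peaks (21.4%) past an adjusted p of 0.05 in edgeR, at 6 genes, where 10.1% of all 37466 tested peaks passed. Only the calls at Atf3 and Npas4 held with every single library left out. Those at Fos, Fosb, Junb and Egr1 each ended on leaving out any 1 of 6 or 7 libraries. DESeq2 called 8 of the 28, of which 5 were higher in brain. It also called more over all 37466 tested peaks, 5513 against 3796 in edgeR, of which 3386 were higher in brain. Higher in brain were 3 (5.78% of all tested), and higher in lung 3 (4.35%). The median log2 fold, brain minus lung, was -0.22 over the 28 peaks and 0.07 over all peaks tested, with 11 peaks above 0 and 17 below. At an unadjusted p under 0.05 there were 11 of 28 (25.1% of all tested). The brain and lung libraries did not overlap at 5 peaks (13.3% of all), of which 2 were higher in brain (8.4%) and 3 in lung (4.94%).

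**Figure D1:**
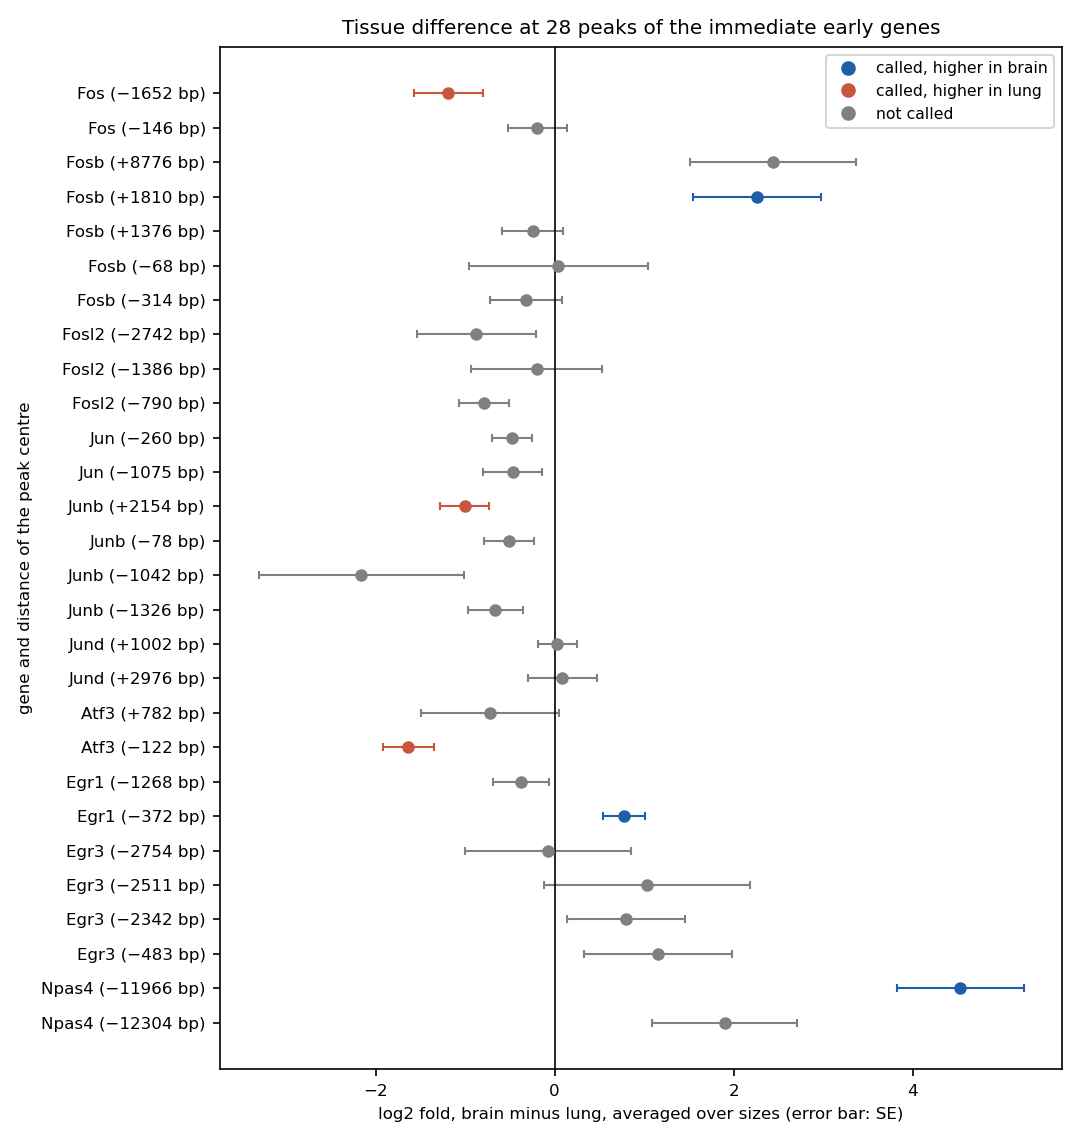
Log2 fold of brain minus lung, averaged over both sizes, with its SE, at the 28 peaks, each named by its gene and the distance of the peak centre from the start site (for Egr1 and Egr3, from the lower-coordinate end of the gene). Blue points were called higher in brain, red points higher in lung and grey points not called; Npas4 stands farthest to the right at 4.53, and the called Atf3 peak lies at -1.64.

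Among the Fos genes, which encode the partners of Jun in AP-1, Fos had a start-site peak that was not called between tissues and a peak upstream that was higher in lung. At the start-site peak chr12:85473483-85474006 (mm10), centred 146 bp upstream, Fos had 85.3 and 81.6 RPM in brain at 200 nuclei and 79.4 and 94.0 RPM in brain at 50 nuclei, against 21.9 to 132 RPM in lung (median 110, n = 6). The low lung value was that of replicate 3 at 50 nuclei, and the other 5 lung libraries, at 102 to 132 RPM, all lay above brain. The log2 fold was -0.19 ± 0.33 (SE, edgeR adjusted p = 0.752), and -0.43 without that library (adjusted p = 0.220). At chr12:85472091-85472385, 1652 bp upstream, Fos had 20.1 and 53.7 RPM in brain at 200 nuclei and 19.2 and 31.3 RPM at 50 nuclei, against 58.7 to 87.6 RPM in lung (median 68.2). All 4 brain libraries lay below all 6 lung libraries, with a log2 fold of -1.19 ± 0.39 (SE, edgeR adjusted p = 0.0428). This call ended on leaving out any 1 of 7 libraries (brain at 200 nuclei replicate 1, both of brain at 50 nuclei, all 3 of lung at 200 nuclei and lung at 50 nuclei replicate 1), at adjusted p = 0.0587 to 0.237. It also ended when the mitochondrial peaks were removed before normalization, and with the default edgeR filter.

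Fosb, a Fos relative whose truncated form accumulates in neurons with repeated activity, had 5 peaks, of which only one within the gene was called. At chr7:19308153-19308318, 1810 bp downstream of the start site, it had 42.6 and 30.1 RPM in brain at 200 nuclei and 38.3 and 37.6 RPM at 50 nuclei, against 0 to 17.2 RPM in lung (median 9.37). Every brain library lay above every lung library, and replicates 2 and 3 of lung at 50 nuclei had 0 reads there. The log2 fold was 2.26 ± 0.71 (SE, edgeR adjusted p = 0.0349), and 1.55 without those 2 libraries (adjusted p = 0.0142). It was lost on leaving out any 1 of 7 libraries (all 4 of brain and all 3 of lung at 200 nuclei), at adjusted p = 0.0746 to 0.171. Without lung at 50 nuclei replicate 1 the log2 fold was 4.79, with the median of all peaks at 0.42.

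A stronger neighbouring peak in Fosb, chr7:19308531-19308807, averaged 53.8 ± 10.1 RPM in brain and 67.2 ± 23.0 RPM in lung (SD, over 4 and 6 libraries) and was not called (adjusted p = 0.688). The peak just upstream of the start, chr7:19310227-19310492, averaged 48.3 ± 12.8 RPM in brain and 62.5 ± 48.6 RPM in lung, where replicate 3 at 50 nuclei reached 159 RPM and the others 26.4 to 54.0 RPM. The peak on the start site itself, chr7:19310037-19310188, was weak in both tissues, at 7.27 ± 1.93 RPM in brain and 6.95 ± 4.23 RPM in lung. Beyond the far end of the gene, chr7:19301197-19301342 had a log2 fold of 2.44 ± 0.92 (SE) that missed the threshold (edgeR adjusted p = 0.0849). It was -0.04 ± 1.07 at 200 nuclei and 4.92 ± 1.49 at 50 nuclei, where the lung libraries had 1.42, 0 and 0 RPM. Averaged over sizes, DESeq2 called this peak (2.58, adjusted p = 0.0308), as did edgeR without lung at 50 nuclei replicate 1 (3.72, adjusted p = 0.0334). In that edgeR fit, lung at 50 nuclei had 0 reads there and the median of all peaks moved to 0.42.

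Fosl2 encodes FRA2, a Fos-family protein without the strong activation domain of FOS. Its strongest peak, chr5:32135397-32135968, lay 790 bp upstream and had 95.3 and 51.6 RPM in brain at 200 nuclei and 62.9 and 113 RPM at 50 nuclei, against 112 to 159 RPM in lung (median 140). Only 1 brain library, at 113 RPM, reached the lung range. The log2 fold of -0.79 ± 0.28 (SE) missed the threshold (edgeR adjusted p = 0.0622) and passed it without replicates 2 and 3 of lung at 50 nuclei, at -0.91 (adjusted p = 0.00215). The other peaks of Fosl2, 1386 and 2742 bp upstream, averaged 16.8 and 14.8 RPM in brain and 19.4 and 29.6 RPM in lung and were not called.

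**Figure D2:**
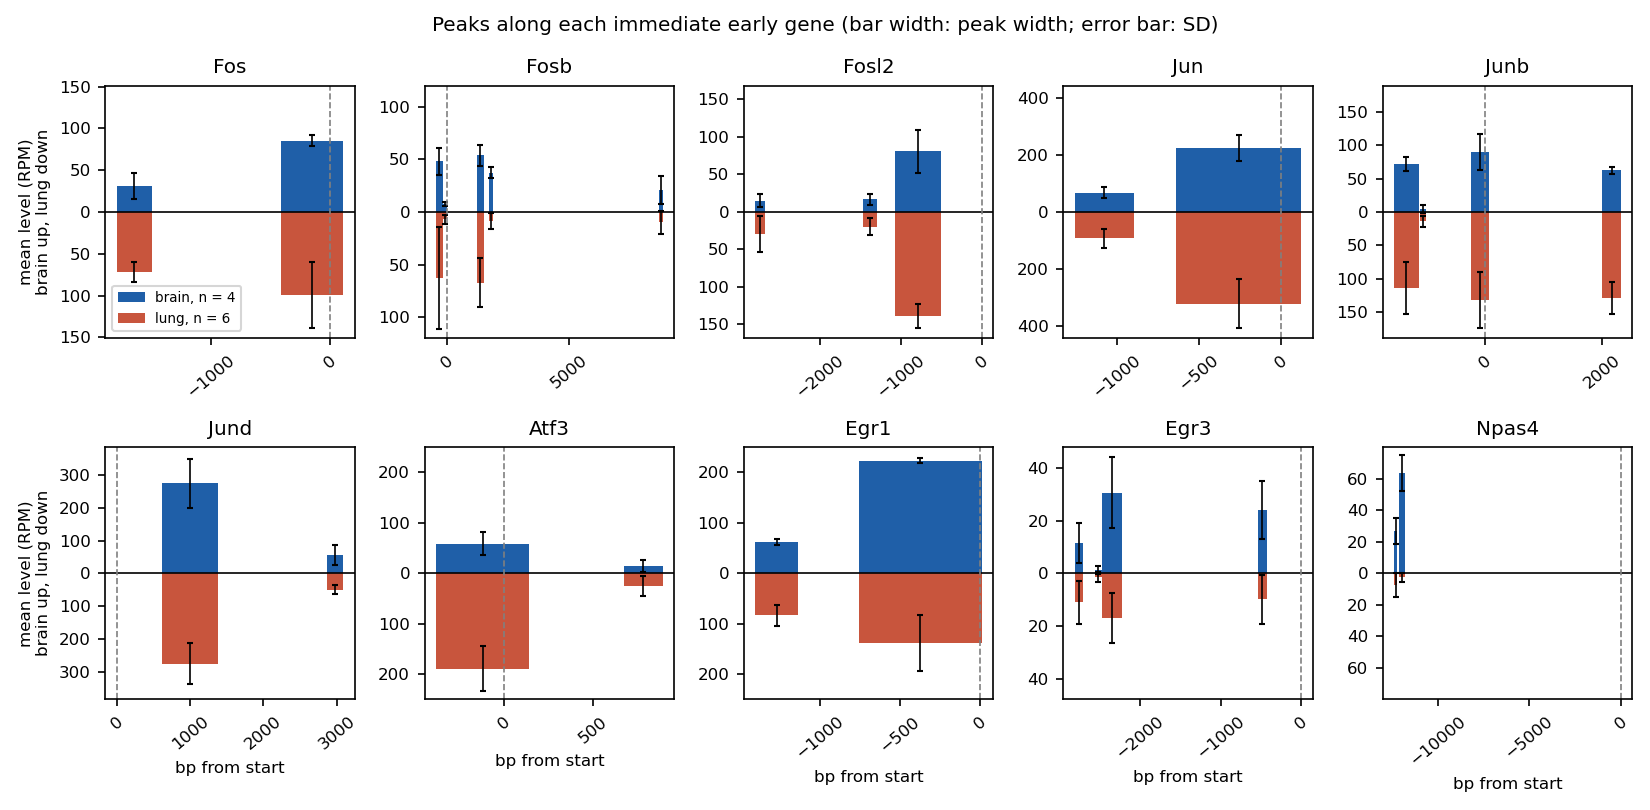
Mean level (RPM, SD as error bar) of each of the 28 peaks along its gene, brain upward (n = 4) and lung downward (n = 6), against the distance in bp from the RefSeq start site, or from the lower-coordinate gene end for Egr1 and Egr3. Vertical axes differ between genes; at Npas4 both peaks lie far upstream, the stronger one reaching 63.8 RPM in brain but 2.55 RPM in lung, and at Atf3 the start-site bar reaches 59.1 RPM in brain and 189 RPM in lung.

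The Jun genes encode the AP-1 subunits that can also pair with themselves. Jun and Jund held the strongest peaks of all 10 genes. The Jun start-site peak, chr4:95052100-95052863, had 211 and 243 RPM in brain at 200 nuclei and 172 and 279 RPM at 50 nuclei, against 230 to 458 RPM in lung (median 324). The tissues overlapped, and the log2 fold of -0.48 ± 0.22 (SE) did not pass (edgeR adjusted p = 0.168), but passed without lung at 50 nuclei replicate 3 (-0.57, adjusted p = 0.0374). This peak also covers an end of Junos, a non-coding RNA gene, so it cannot be assigned to either gene alone. The Jun peak 1075 bp upstream, chr4:95053117-95053477, averaged 67.9 ± 18.5 RPM in brain and 93.3 ± 32.0 RPM in lung and was called higher in lung only when replicates 2 and 3 of lung at 50 nuclei were left out together or library totals were used for scaling (log2 fold -0.72, adjusted p = 0.0277 without those libraries).

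Junb, which in many settings opposes the activity of JUN, was lower in brain at each of its 4 peaks in log2 fold, and 1 was called. At chr8:84976439-84976748, just beyond the 3′ end of the gene and 2154 bp downstream of its start site, it had 62.7 and 55.9 RPM in brain at 200 nuclei and 62.9 and 68.9 RPM at 50 nuclei, against 105 to 164 RPM in lung (median 119). Every lung library was above every brain library, and the log2 fold was -1.01 ± 0.28 (SE, edgeR adjusted p = 0.0152). The gene Prdx2 also lies within 5000 bp of this peak. The call ended on leaving out any 1 of 6 libraries (all 4 of brain and lung at 200 nuclei replicates 2 and 3), at adjusted p = 0.0529 to 0.0912. At the start-site peak, chr8:84978676-84978977, brain averaged 90.1 ± 27.2 RPM and lung 132 ± 42.0 RPM, a difference that was not called (adjusted p = 0.247). Of the upstream peaks, chr8:84979864-84980283 averaged 71.4 ± 10.3 RPM in brain and 114 ± 39.3 RPM in lung, and chr8:84979738-84979841 4.44 ± 5.53 and 14.1 ± 8.27 RPM; both were called higher in lung without replicates 2 and 3 of lung at 50 nuclei (log2 folds -0.79 and -2.76, adjusted p = 0.0123 and 0.00648).

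Jund, the Jun gene that is expressed in most resting cells, showed the smallest tissue difference among the strong peaks. Its main peak, chr8:70698358-70699125, lay within the gene, 1002 bp downstream of the RefSeq start site. It had 183 and 357 RPM in brain at 200 nuclei and 252 and 310 RPM at 50 nuclei, against 208 to 383 RPM in lung (median 263). The ranges overlapped over most of their length, with a log2 fold of 0.03 ± 0.22 (SE, edgeR adjusted p = 0.951). The second peak, at the 3′ end, averaged 55.3 ± 30.6 RPM in brain and 49.4 ± 13.7 RPM in lung (log2 fold 0.09 ± 0.39, SE). A value that misses the threshold does not show that the tissues are equal.

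Atf3 had the clearest difference in favour of lung. Its start-site peak, chr1:191183193-191183717, had 37.6 and 85.9 RPM in brain at 200 nuclei and 43.8 and 68.9 RPM at 50 nuclei, against 142 to 261 RPM in lung (median 192). The lowest lung library lay above the highest brain library. Means were 59.1 ± 22.5 RPM for brain against 189 ± 44.4 RPM for lung (SD), with a log2 fold of -1.64 ± 0.29 (SE, edgeR adjusted p = 0.000196). The call held in all 18 alternative settings, with log2 folds of -2.02 to -1.39 when 1 library was left out. The difference was called at 200 nuclei (log2 fold -1.86 ± 0.40, SE, adjusted p = 0.00756; 2 of 28 peaks called, 2.23% of all tested, with brain higher at 1.01% and lower at 1.22%) and missed the threshold at 50 nuclei (-1.42 ± 0.41, adjusted p = 0.0676). Of the 10 single libraries, leaving out brain at 200 nuclei replicate 1 or lung at 200 nuclei replicate 3 ended the Atf3 call at 200 nuclei (adjusted p = 0.385 and 0.0820). At 50 nuclei it passed without lung at 50 nuclei replicate 2 or 3 (0.0423 and 0.0491). A weaker peak within the gene, chr1:191182442-191182660, had a log2 fold of -0.72 ± 0.77 (SE) and was not called (adjusted p = 0.589). Without replicates 2 and 3 of lung at 50 nuclei it was called higher in lung (-1.34, adjusted p = 0.0351), and without replicate 1 of that group its fold was 0.38.

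**Figure D3:**
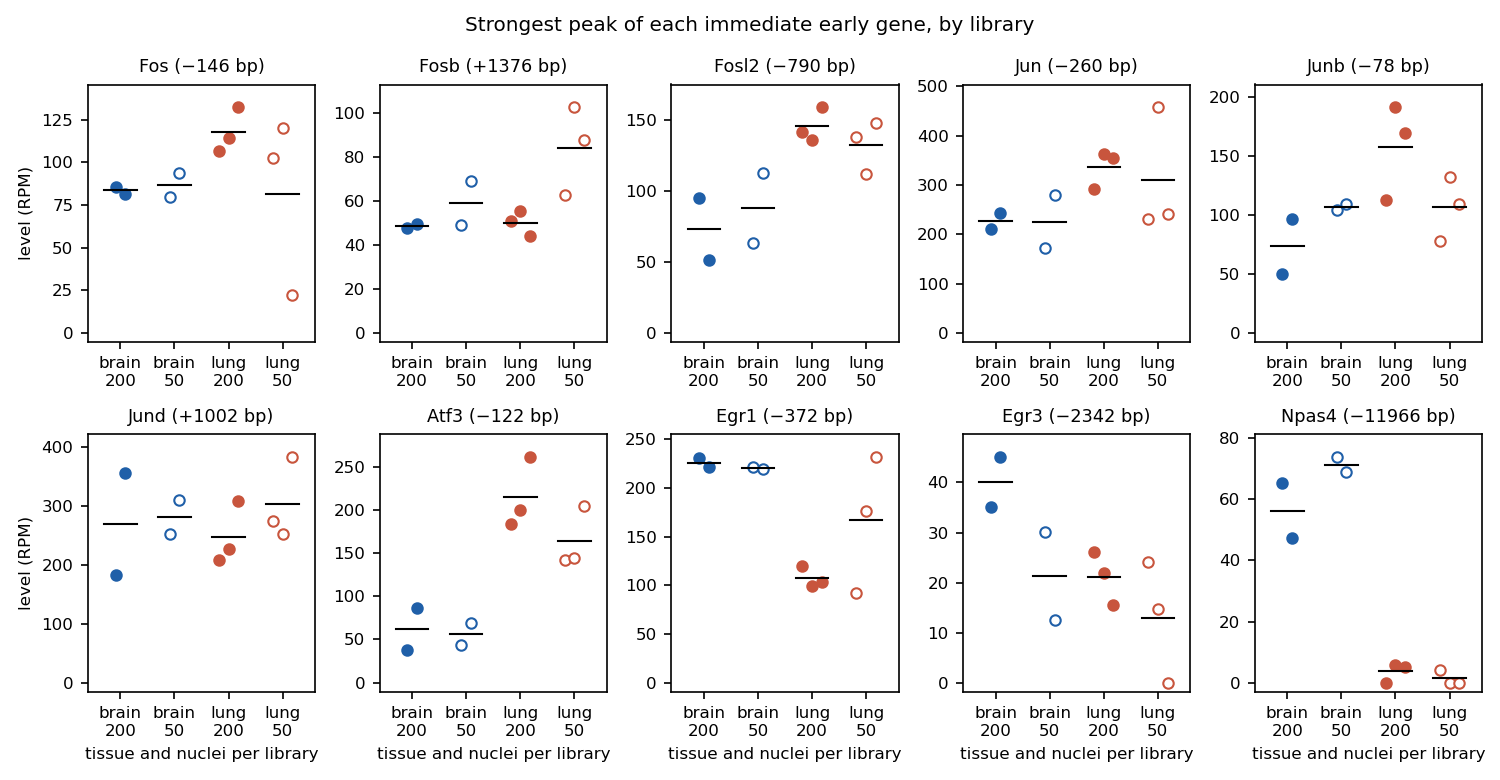
Level (RPM) of the strongest peak of each gene in every library, filled points for 200 nuclei and open points for 50 nuclei, with black lines at group means; each panel names the distance of the peak centre from the start site, or from the lower-coordinate gene end for Egr1 and Egr3. Brain and lung points are apart at Atf3 and Npas4, and at Egr1 a single lung library of 50 nuclei reaches the brain level of 219 to 231 RPM.

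Egr1 had the only strong gene-end peak of the 10 genes that was called higher in brain. Strand is not in the annotation used for Egr1 and Egr3, so positions are from the lower-coordinate end of the gene. The peak chr18:34860449-34861220, which covers the lower-coordinate end of the gene, had 231 and 221 RPM in brain at 200 nuclei and 222 and 219 RPM at 50 nuclei, against 92.4 to 232 RPM in lung (median 112). The brain libraries were nearly alike. Lung at 50 nuclei replicate 3, at 232 RPM, was the only library of lung to overlap them. The log2 fold was 0.78 ± 0.23 (SE, edgeR adjusted p = 0.0276), and 1.09 without replicates 2 and 3 of lung at 50 nuclei (adjusted p = 3.05e-05). It was lost on leaving out any 1 of 6 libraries (all 4 of brain and lung at 200 nuclei replicates 2 and 3), at adjusted p = 0.0767 to 0.106. With mitochondrial reads included in the library totals used for scaling, the median over all peaks became -3.34 and the fold of this peak -2.74.

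The second Egr1 peak did not share this direction. At chr18:34859804-34860073, centred 1268 bp before that end of the gene, Egr1 averaged 62.4 ± 6.20 RPM in brain and 83.1 ± 21.1 RPM in lung (log2 fold -0.37 ± 0.31, SE, edgeR adjusted p = 0.478). The gene-end peak held 3.22 to 4.05 times as many reads as this neighbour in the brain libraries and 1.12 to 2.95 times as many in the lung libraries. This ratio within a library does not depend on how libraries are scaled, and its ranges did not overlap. It was computed after the values were seen and carries no test. For the same ratio at Fos, start-site over upstream peak, brain gave 1.52 to 4.25 and lung 0.353 to 2.05, which overlapped. At Jun it was 2.21 to 4.94 in brain and 2.05 to 6.60 in lung, which overlapped as well. The ratio was computed for Egr1, Fos and Jun only, and other pairs of peaks were not examined.

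Egr3, a relative of Egr1 that acts downstream of it in some neurons, had 4 weak peaks and no call. The one nearest the gene, chr14:70076780-70076888, had 35.1 and 19.3 RPM in brain at 200 nuclei and 10.9 and 31.3 RPM at 50 nuclei, against 0 to 24.2 RPM in lung (median 9.76). Its log2 fold was 1.15 ± 0.82 (SE, edgeR adjusted p = 0.395), and without lung at 50 nuclei replicate 1 it became 4.28 (adjusted p = 0.0146). The other libraries of that group had 0 reads there, and the median of all peaks moved to 0.42 in that fit. The strongest, chr14:70074854-70075096, averaged 30.7 ± 13.6 RPM in brain and 17.1 ± 9.53 RPM in lung (adjusted p = 0.468). The other 2 reached at most 22.6 and 2.74 RPM in brain and 21.3 and 3.90 RPM in lung.

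Npas4 showed the largest difference of the 28 peaks. At chr19:5001794-5002081 it had 65.2 and 47.3 RPM in brain at 200 nuclei and 73.9 and 68.9 RPM at 50 nuclei, against 0 to 5.86 RPM in lung (median 2.13). The brain libraries held 97 reads there and the lung libraries, with more nuclear reads in sum, 27. The log2 fold was 4.53 ± 0.71 (SE, edgeR adjusted p = 4.17e-05), and it was called at 200 nuclei (3.79 ± 0.90, adjusted p = 0.0164) and at 50 nuclei (5.28 ± 1.09, adjusted p = 0.00903; 1 of 28 peaks called, 1.41% of all tested, with brain higher at 0.918% and lower at 0.488%). The call at 50 nuclei ended without either library of brain at 50 nuclei, at adjusted p = 0.157 and 0.160. That at 200 nuclei ended without any 1 of the 4 libraries of brain or the 3 of lung at 200 nuclei, at adjusted p = 0.0580 to 0.315. Averaged over sizes the call held without any 1 library, at adjusted p = 2.96e-07 to 0.00337, and without replicates 2 and 3 of lung at 50 nuclei (log2 fold 3.87). Only scaling by library totals ended it (log2 fold 1.22, adjusted p = 0.258).

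The neighbouring Npas4 peak, chr19:5002180-5002369, averaged 26.8 ± 8.04 RPM in brain and 7.19 ± 7.71 RPM in lung (log2 fold 1.90 ± 0.81, SE, edgeR adjusted p = 0.130). DESeq2 called it (1.98, adjusted p = 0.0409). Lung at 50 nuclei replicate 3 had 21.9 RPM there, within the brain range of 19.2 to 37.6 RPM, and without replicates 2 and 3 of that group the log2 fold was 2.55 (adjusted p = 0.00472). Both peaks lie 11966 and 12304 bp upstream of the start site that the promoter table gives for Npas4, inside a longer RefSeq gene model whose end is 1502 and 1164 bp away. The start site itself had no peak in the table.

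Without replicates 2 and 3 of lung at 50 nuclei, 12 of the 28 peaks were called (22.3% of all tested), with all 6 of the calls above among them. Of these, 4 were higher in brain (9.97% of all), at Fosb, Egr1 and Npas4, and 8 were higher in lung (12.3%), at Fos, Fosl2, Jun, Junb and Atf3. At 200 nuclei 10 were called (16.5%), with brain higher at 3 (7.07%) and lower at 7 (9.44%). At 50 nuclei 3 were called (4.07%), of which 2 were higher in brain (1.82%) and 1 in lung (2.26%). Leaving out single lung libraries gave 2 to 10 calls averaged over sizes. The calls over all tested peaks then ranged from 2043 to 7020, against 3796 with every library. Of the 28, 2 were called without lung at 200 nuclei replicate 2 or 3 (2244 and 2043 of all). Without lung at 50 nuclei replicate 3, 10 were called (6555 of all). The calls lost without a brain library are given with each gene above.

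**Figure D4:**
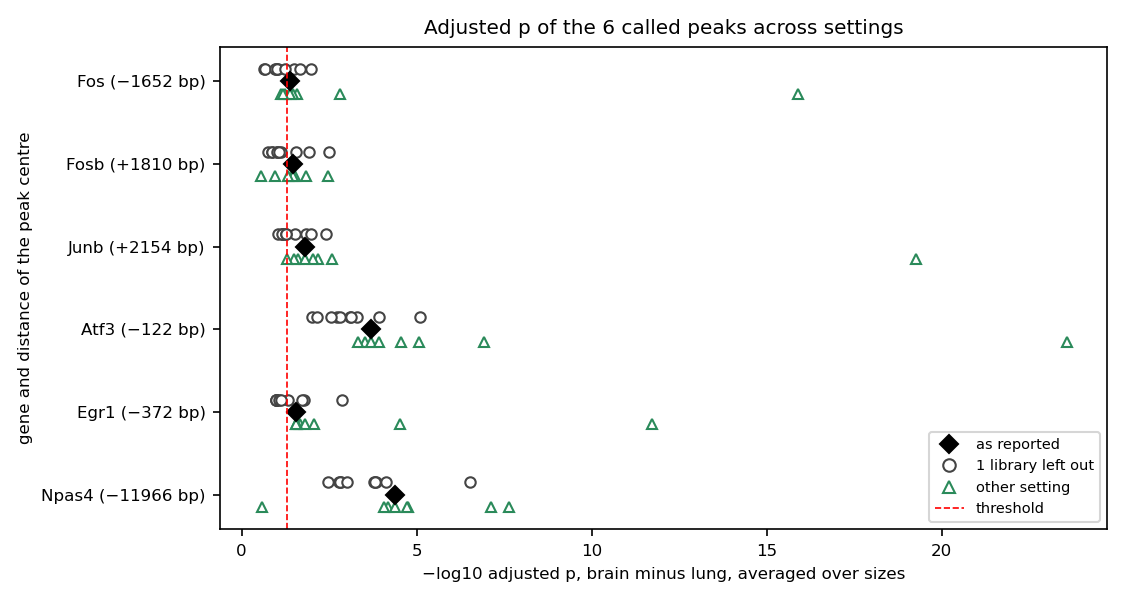
Adjusted p (as -log10) for brain minus lung at the 6 called peaks, as reported (diamonds), with 1 library left out (circles) and under the other settings (triangles), with the threshold as a dashed line. Atf3 stays right of the line throughout, Npas4 in all but 1 setting, and the other 4 cross it; the Egr1 triangle farthest right is the library-total scaling, in which its fold is reversed.

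Mini-bulk size was compared within each tissue. None of the 28 peaks was called between 200 and 50 nuclei in brain, in lung or averaged over tissues, nor for a dependence of the tissue difference on size (edgeR, 0 of all 37466 tested peaks, or 0%, in each). At an unadjusted p under 0.05 there was 1 of the 28 in brain (1.13% of all tested), 3 in lung (8.19%), 1 averaged over tissues (3.69%) and 2 for the dependence on size (4.09%). DESeq2 called 0 of the 28 in each. The lowest p in lung belonged to the Fosb peak beyond the far end of the gene, chr7:19301197-19301342, with 24.9, 19.8 and 13.3 RPM in lung at 200 nuclei and 1.42, 0 and 0 RPM in lung at 50 nuclei (log2 fold 4.87 ± 1.38, SE, edgeR adjusted p = 0.487). In brain the same peak had 22.6 and 17.2 RPM at 200 nuclei and 5.47 and 37.6 RPM at 50 nuclei. The limit that a count of 0 allows was 8.81 and 5.48 RPM in the 2 lung libraries without a read there.

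Summed over the peaks of each gene, the level was lower in every brain library than in every lung library for Fosl2 (70.9 to 141 RPM in brain, 157 to 207 RPM in lung), Junb (178 to 257 and 336 to 425 RPM) and Atf3 (37.6 to 114 and 156 to 292 RPM). It was higher in every brain library for Npas4 alone (75.2 to 106 RPM in brain, 0 to 21.9 RPM in lung). The sums overlapped between tissues for Fos, Fosb, Jun, Jund, Egr1 and Egr3. Jund had the closest means, at 331 ± 92.2 RPM in brain and 325 ± 72.6 RPM in lung. These sums are a description without a test. How many of all genes have sums that do not overlap was not counted, so the sums do not set these genes apart. Among single peaks, 13.3% of all tested did not overlap. That share is for single peaks and gives no background for sums over several peaks. Compared with all 37511 nuclear peaks, the 28 were wider, at a median of 267 bp against 164 bp, and stronger, at a median of the mean level of 53.5 RPM against 13.1 RPM, and 12 of 28 (42.9%) lay within 1000 bp of a gene end against 36.8%. The shares over all tested peaks, here and for the lists below, were not matched for width or level.

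Other genes of the same response were counted by list. Among 25 other immediate early genes with a peak, 22 of 81 peaks were higher in lung and 3 in brain (30.9% called, against 10.1% of all tested peaks, of which 4.35% were higher in lung and 5.78% in brain), with a median log2 fold of -0.85 (0.07 over all peaks tested). Higher in lung were peaks of Btg2, Csrnp1, Dusp1, Dusp6, Ier2, Mcl1, Nr4a1, Per1, Sik1, Trib1 and Zfp36, and peaks of Arc, Homer1 and Ier5 were higher in brain. Of the 22, Zfp36 gave 4 and Dusp1, Ier2 and Per1 gave 3 each. Zfp36, which encodes a protein that destabilises messenger RNA, had 4 of 5 peaks higher in lung, among them one at a gene end, chr7:28376436-28376678, with 10.2 ± 7.61 RPM in brain and 68.9 ± 26.6 RPM in lung (log2 fold -2.71 ± 0.51, SE, edgeR adjusted p = 0.000410). Dusp1, a phosphatase that switches off MAP kinases, averaged 132 ± 10.0 RPM for brain against 256 ± 43.2 RPM for lung at chr17:26508224-26508853 (-0.93 ± 0.23, adjusted p = 0.00628). Arc, a neuronal gene of synaptic plasticity, averaged 86.9 ± 20.0 RPM for brain against 26.5 ± 15.3 RPM for lung at chr15:74672507-74672822 (1.66 ± 0.43, adjusted p = 0.0102).

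Of the other AP-1 and related bZIP genes, 8 of 43 peaks were higher in lung and 0 in brain (18.6% called, against 10.1% of all tested; median log2 fold -0.69), at Bach1, Bach2, Batf2, Maff and Mafk. Bach2 gave 4 of these 8, all within the gene. Among Egr2, Egr4, Nab1 and Nab2, 1 of 8 peaks was called (12.5%, against the same 10.1%; median log2 fold 0.12). It lay at an end of Egr4, an activity-induced gene of neurons, chr6:85513613-85513703, where the brain libraries held 36 reads and the lung libraries 0. Taking 3 reads over all lung libraries as the floor, the pooled brain level was 60.7 times that floor. This ratio is not a lower bound, because it leaves out counting error in brain and the spread between libraries (10.7 to 35.6 RPM in brain). Of the upstream regulators, among them Srf and Creb1, 3 of 71 peaks were higher in brain, at Mapk10, Mef2d and Mrtfb, and 2 in lung, at Mapk3 and Mrtfb (median log2 fold 0.14). At 7.04% called, this list lay below the 10.1% of all tested peaks. Endothelial and neuronal marker levels differed between the same libraries, as given above, and their part in these counts was not tested.

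**Figure D5:**
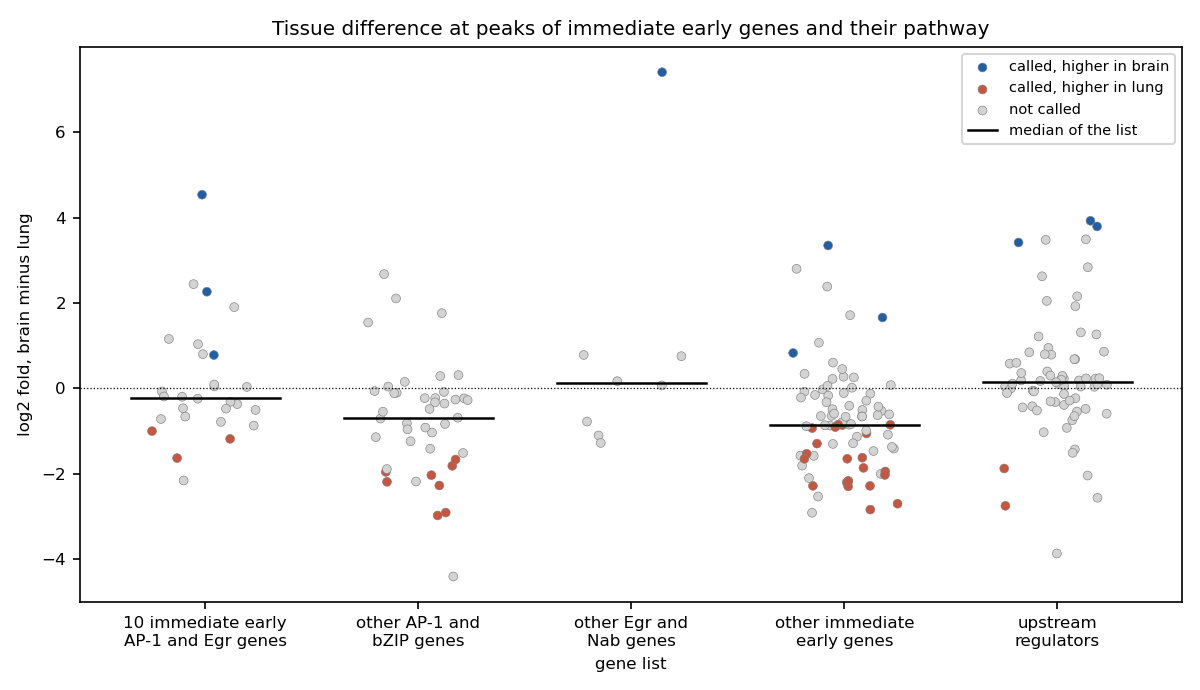
Log2 fold of brain minus lung at each peak of the 10 genes and of 4 lists of related genes, with calls higher in brain in blue, calls higher in lung in red and list medians as black lines. The other immediate early genes have 22 red and 3 blue points around a median of -0.85, and the upstream regulators 2 red and 3 blue points around 0.14.

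Across the 10 libraries, the mean log2(RPM + 1) profile of the strongest gene-end peak of 9 of the genes, Npas4 having none within 1000 bp, was most like the gene-end peaks of Ptpn12 (Pearson's r = 0.920), Aldh2 (0.884), B4galt1 (0.847), Skil (0.843) and Klf9 (0.834), out of 7120 genes with a median r of 0.0972. The Ptpn12 peak, chr5:21055884-21056489, averaged 101 RPM in brain and 115 RPM in lung. These correlations are over only 10 libraries that share depth and capture with the genes themselves, so they describe these libraries only.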

How the data were processed

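Raw counts of reads per peak, as deposited for the 10 libraries in a single file, were the input. The submitters' processing notes name mm10 as the build and list MACS2 2.2.7.1, Bowtie2 2.4.5 and Trimmomatic 0.36 among the tools. The sources used here do not give peak merging, the counting program, removal of duplicates or any Tn5 shift; if duplicates remain, 1 fragment is counted more than once.

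Peaks were assigned to protein-coding and listed genes of RefSeq GRCm38.p6, and coordinates are printed as deposited. All peaks with at least 10 reads in sum were tested in edgeR 4.0.16 (R 4.3.3) by quasi-likelihood F tests with TMM normalization. The 2 mitochondrial peaks were kept in this fit, unlike in RPM. The model had a mean for each of the 4 groups and a spread for each peak, moderated across peaks (common dispersion 0.350). Benjamini-Hochberg adjustment ran over all tested peaks at 0.05. The SE printed with edgeR folds is the absolute log2 fold divided by the square root of F. The procedure was tested on simulated data. DESeq2 1.42.0 was an alternative, with other scalings, filters, distances, a replicate block and left-out libraries. All peaks of the 10 genes are named. In the lists, the genes with a called peak are named; 1 item of the upstream regulators is not reported here and is left out of that list's counts. The genes and lists were chosen with earlier results of these data known.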

Additional observations from a re-analysis of the deposited data

Results flagged for a closer look

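In 7 of 56 sets of values, a tissue at a peak, 1 library stood far from the others by its gap to the nearest value relative to the range. The cutoff flags about 1 in 20 if all libraries vary alike, which libraries of such unequal depth need not. How often the rule flags other peaks was not counted, so the 7 of 56 does not set these genes apart. Lung at 50 nuclei replicate 3 was low at the Fos start-site peak (21.9 RPM, others 102 to 132 RPM) and high at the Fosb peak upstream of the start (159 RPM, others 26.4 to 54.0 RPM) and at the second Npas4 peak (21.9 RPM, others 0 to 8.13 RPM). Lung at 50 nuclei replicate 2 was high at the Fosl2 peak 2742 bp upstream (76.3 RPM, others 9.13 to 32.7 RPM) and at the Egr1 peak away from the gene (123 RPM, others 61.0 to 82.5 RPM). Brain at 50 nuclei replicate 2 was high at the stronger Fosb peak within the gene (68.9 RPM, others 47.6 to 49.4 RPM), and brain at 200 nuclei replicate 1 at the upstream Jun peak (95.3 RPM, others 56.4 to 62.3 RPM). The 2 lung libraries named are those with a read at the fewest peaks. No dependence of a tissue difference on size passed its test.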

How the results depend on the processing

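Of 28 peaks, Atf3 at its start site and Npas4 at its stronger peak were called with every single library left out. For brain minus lung averaged over sizes, the 6 calls became 23 with library totals, 12 without lung 50-nuclei replicates 2 and 3, 3 with the replicate block, and 2 to 10 with 1 library left out. At 200 nuclei, 2 became 24 with library totals, 10 without those 2 lung libraries, and 0 to 5 with 1 library left out. At 50 nuclei, 1 became 4 with DESeq2, 18 with library totals, 2 with nuclear totals and no TMM, 3 without those 2 lung libraries, 2 for peaks within 20 kb of the genes, and 0 to 4 with 1 library left out. The size comparisons gave 0 calls throughout. For these settings at 200 and 50 nuclei, calls over all peaks are given only for the fit without those 2 lung libraries. The other counts at each size therefore do not set these genes apart from other peaks. Over all peaks, the 3796 calls of brain minus lung became 30331 with library totals (252 higher in brain), 8350 without those 2 lung libraries, 2034 with the default edgeR filter, 2028 with the replicate block, and 1590 to 7020 with 1 library left out. Lists of peaks within 1 kb or 20 kb held 19 or 38 peaks. The replicate block ended the calls upstream of Fos (edgeR adjusted p = 0.0643), within Fosb (0.112) and beyond Junb (0.0504). The call upstream of Fos also ended with TMM after removal of the mitochondrial peaks and with the default edgeR filter. Between groups, deviations from group means correlated at -0.0297 to 0.0195 for same-numbered libraries and at -0.027 to 0.0297 for the others. Correlations this small cannot decide whether the numbers pair the libraries. In brain, with 2 libraries a group, the values for same and other numbers mirror each other by construction. Library totals turned log2 folds to -0.91 (Fosb, beyond its end), -1.03 (Fosb, called peak), -3.28 (Fosb start site), -3.51 and -3.47 (Jund), -2.74 (Egr1), -1.40, -2.56 and -2.15 (Egr3) and -1.62 (Npas4, second peak), because mitochondrial reads enter them. Other reversals were all at peaks not called in either setting, and their cause was not tested. The block gave 0.21 for Fosb upstream of its start, DESeq2 0.060 for Egr3 at 2754 bp, and leaving out lung 50-nuclei replicates 2 and 3 gave -0.50 for the Fosb start site. With 1 library left out, log2 folds ranged from -0.43 to 0.082 (Fos start site), -0.20 to 0.80 (Fosb start site), -0.50 to 0.070 (Fosb upstream of its start), -0.51 to 0.26 (Fosl2 at 1386 bp), -0.27 to 0.24 and -0.31 to 0.35 (Jund), -4.14 to 0.38 (Atf3 within the gene), and -0.47 to 1.47 and -0.72 to 1.51 (Egr3 at 2754 and 2511 bp). A group reduced to 1 library is assumed to vary like the others. In brain, 0 reads in a library allows a level of up to 6.44 RPM in the deepest and 9.40 RPM in the shallowest library.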
